A study of Mus musculus with 6 samples.

Results

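The genes described here encode the enzymes that remove superoxide and peroxides: the superoxide dismutases Sod1, Sod2 and Sod3, catalase (Cat), and the glutathione peroxidases Gpx1, Gpx3, Gpx4, Gpx7 and Gpx8. They were taken by symbol from a table of raw counts, in which all 9 were found among 30438 gene rows. RNA was sequenced from poly(A)-selected libraries of HEI-OC1, an immortalised mouse auditory cell line that is used to study ototoxicity and is labelled here as a cochlear stem cell. There were 2 groups of 3 libraries: HEI-OC1 of genotype WT (the control) and HEI-OC1 labelled Nrf2 knockout (Nrf2 KO). Both were grown at 33 °C and 10% CO2 in DMEM with 10% FBS and penicillin-streptomycin, and no cisplatin or other drug is recorded for these samples, although the study asks why the knockout resists cisplatin. The method and position of the edit, and whether the line is 1 clone, were not given in the sources used here.

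Superoxide dismutases turn superoxide into hydrogen peroxide and oxygen. SOD1 is the copper-zinc enzyme of the cytosol, SOD2 the manganese enzyme of the mitochondrial matrix, and SOD3 a copper-zinc enzyme that is secreted and held in the extracellular matrix. Hydrogen peroxide is then broken down by catalase in peroxisomes or reduced by glutathione peroxidases. GPX1, GPX3 and GPX4 carry selenocysteine at the active site. GPX7 and GPX8 carry cysteine there and work in the endoplasmic reticulum, where oxidative protein folding releases peroxide. NRF2, encoded by Nfe2l2, is a transcription factor that acts through antioxidant response elements in DNA. In the cochlea, cisplatin toxicity to hair cells is linked to reactive oxygen species, which is why these enzymes are often followed in this line.

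The letters of the antioxidant response element core were searched in the RefSeq promoter windows of mouse build GRCm38.p6, which run from 250 bases before to 50 after a transcript start. The search used TGACNNNGC on either strand. Windows were matched for 8 of the 9 genes, with 11 windows in all, and Sod3 was not among them. Only Sod1 held a match, as TGACCACGC on the strand opposite to the gene, starting 56 bases before its start. Of 32851 mouse windows, 12.4% held at least 1 match. A match is a description of letters, and a window without them says nothing about NRF2 at that gene. The sequences are those of Sod1, the only gene with the match, of Gpx8, 1 of the 2 genes that passed the test between groups, and of Cat, the promoter with the most CCAAT. Capitals mark TGACNNNGC and 3 common promoter motifs, which were chosen after the sequences had been seen, on either strand. These are the letters CCAAT, held by 37.4% of the same windows, the GC box letters GGGCGG, held by 35.7%, and the TATA box letters TATAAA, held by 13.6%. Neighbouring matches of GGGCGG in Sod1 overlap. Each run stops where the outermost GENCODE M21 start of the gene lies, and is written 5′ to 3′ along the gene's strand.
Sod1, chr16:90220512-90220753, plus strand: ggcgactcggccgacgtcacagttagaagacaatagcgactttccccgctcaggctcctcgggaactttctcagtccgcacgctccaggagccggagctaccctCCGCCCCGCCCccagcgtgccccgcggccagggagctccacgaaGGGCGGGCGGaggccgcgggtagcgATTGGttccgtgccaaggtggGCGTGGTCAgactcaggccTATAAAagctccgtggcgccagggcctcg
Cat, chr2:103485161-103485403, minus strand: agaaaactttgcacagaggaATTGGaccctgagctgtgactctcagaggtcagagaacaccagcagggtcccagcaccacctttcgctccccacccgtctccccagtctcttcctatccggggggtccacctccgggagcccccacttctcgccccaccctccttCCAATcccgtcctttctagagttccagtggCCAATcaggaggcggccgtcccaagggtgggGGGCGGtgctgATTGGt
Gpx8, chr13:113046411-113046638, minus strand: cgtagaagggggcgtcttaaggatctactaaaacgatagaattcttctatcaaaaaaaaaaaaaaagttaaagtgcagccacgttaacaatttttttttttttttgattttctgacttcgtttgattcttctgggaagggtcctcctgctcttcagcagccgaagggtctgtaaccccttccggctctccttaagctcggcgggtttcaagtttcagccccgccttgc
In its whole window Cat had 4 matches of CCAAT and 1 of GGGCGG. Sod1 had 1 of CCAAT, 4 of GGGCGG and 1 of TATAAA. Gpx8 had none of the 4 letter patterns.

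The libraries held 29130007 to 51285343 counts, and the smallest was Nrf2 KO replicate 1. That library stood apart. Its log2 CPM (counts scaled to library size with TMM factors) had a Pearson's r across genes of 0.931 and 0.939 with the other Nrf2 KO libraries, which had an r of 0.995 with each other. Nothing in the labels ties the replicates to separate cultures, and p-values therefore reflect only a spread among samples that could be technical. The targeted gene Nfe2l2 was at 74.2, 126 and 96.7 CPM in control and 395, 235 and 204 CPM in Nrf2 KO replicates 1, 2 and 3. Its transcript was thus higher where the label says knockout (log2 fold change 1.49, SE 0.33, adjusted p = 0.0456, with a range of 0.000371 to 0.202 over the alternatives), and it goes against the label. Gene counts do not show an edit that keeps the transcript. All directions are those of the libraries labelled Nrf2 KO relative to control.

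**Figure D1:**
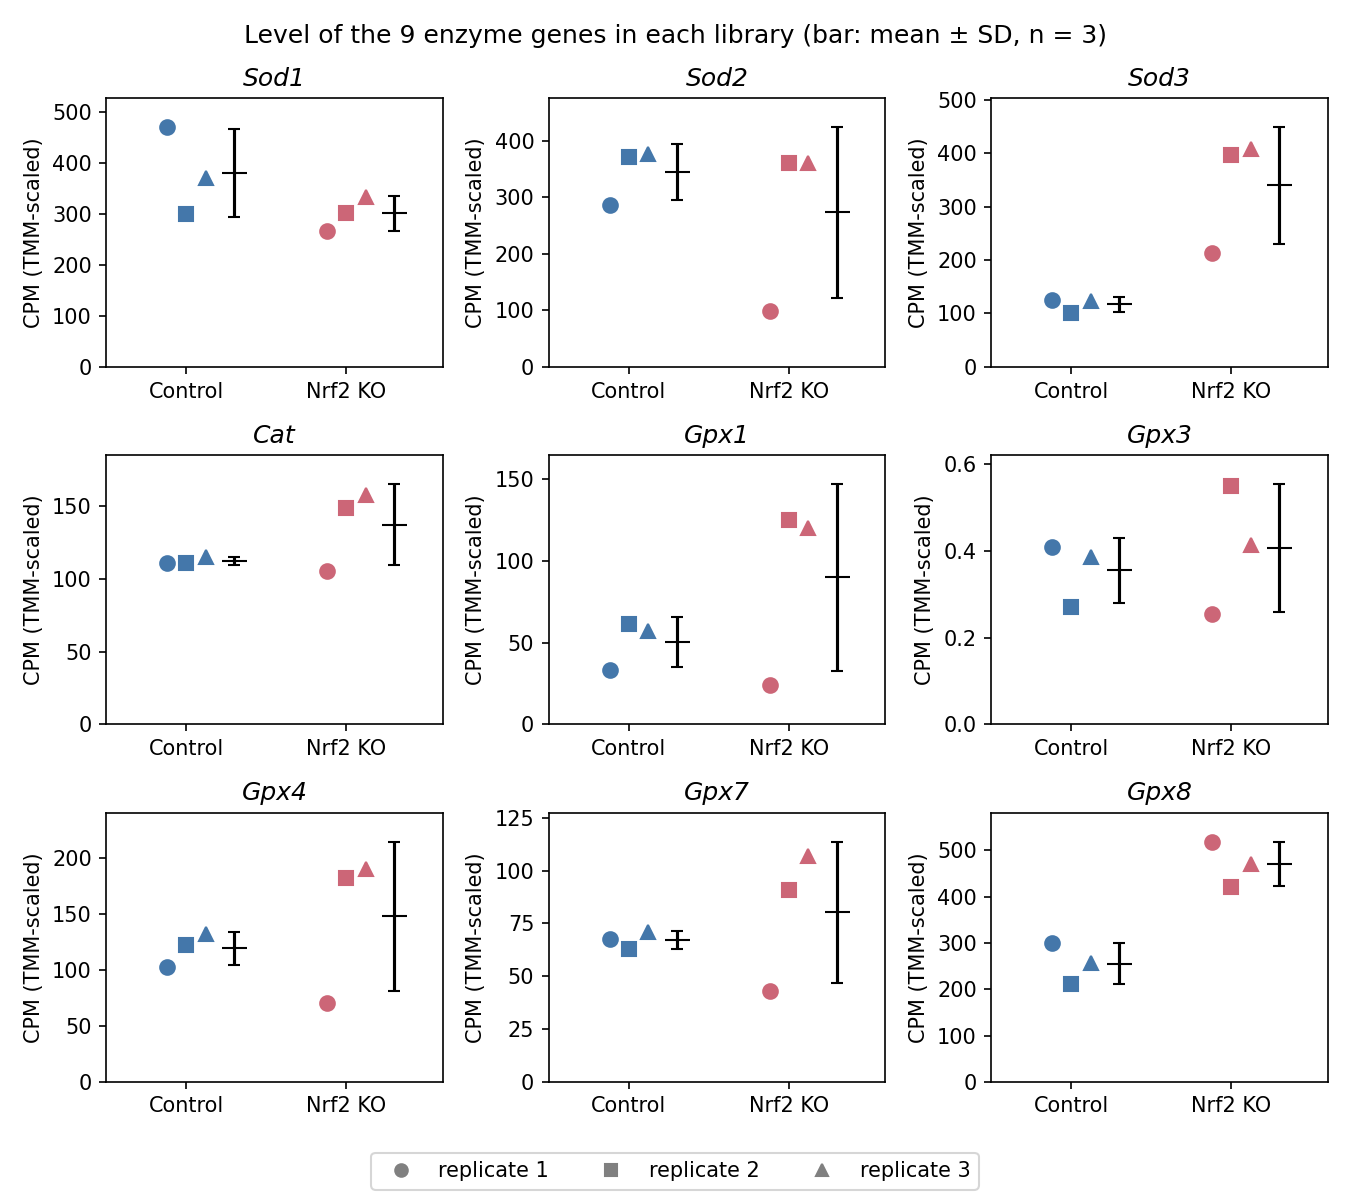
Level of each gene in CPM (vertical axis, TMM-scaled) in the 3 control and 3 Nrf2 KO libraries; symbols give the replicate number and black bars the mean ± SD. Sod3 and Gpx8 are the genes whose groups do not overlap, and Nrf2 KO replicate 1 is the lowest Nrf2 KO library for every gene but Gpx8.

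Of the superoxide dismutases, Sod3 rose, and Sod1 and Sod2 did not pass the test. Sod3 was at 126, 101 and 124 CPM in control replicates 1, 2 and 3 and at 214, 398 and 409 CPM in Nrf2 KO replicates 1, 2 and 3. Every Nrf2 KO library lay above every control library, and Nrf2 KO replicate 1 was the lowest of its group. The mean went from 117 ± 14.0 to 340 ± 109 CPM (SD, n = 3 each), a fitted 2.91-fold rise (log2 fold change 1.54, SE 0.29; edgeR quasi-likelihood adjusted p = 0.0276). Counted from the largest rise, Sod3 stood at rank 552 of 14618 tested genes. Leaving out 1 library ended the call for control replicate 1 (adjusted p = 0.115), control replicate 2 (0.124), control replicate 3 (0.145), Nrf2 KO replicate 2 (0.0970) and Nrf2 KO replicate 3 (0.0980), with the log2 fold change between 1.39 and 1.59 in those fits. Over all alternatives the adjusted p lay between 1.05e-05 and 0.145.

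Sod1, the cytosolic enzyme, was at 471, 299 and 370 CPM in control replicates 1, 2 and 3 and at 266, 303 and 334 CPM in their Nrf2 KO counterparts. The control libraries spread widely, replicate 2 lay within the Nrf2 KO range, and the groups overlapped. Its log2 fold change of -0.34 (SE 0.22, adjusted p = 0.417) kept its sign in all 15 alternatives and passed in none of them.

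Sod2, the mitochondrial enzyme, was at 287, 371 and 376 CPM in control and at 98.8, 361 and 361 CPM in Nrf2 KO replicates 1, 2 and 3. Replicates 2 and 3 labelled Nrf2 KO lay inside the control range, while Nrf2 KO replicate 1 was 3.66-fold below their mean. The fit gave a log2 fold change of -0.33 (SE 0.48, adjusted p = 0.742). Without Nrf2 KO replicate 1 it was 0.063 (adjusted p = 0.775), and without both replicate 1 libraries -0.045 (0.683), so most of the Sod2 difference lay in that library.

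Cat, which encodes the peroxisomal catalase, was the steadiest of these genes in control cells, at 111, 111 and 115 CPM. The Nrf2 KO libraries held 105, 148 and 157 CPM. Replicate 1 lay just below the control range and the others above it. The fit gave a log2 fold change of 0.29 (SE 0.19, adjusted p = 0.412). Without Nrf2 KO replicate 1, Cat passed with a log2 fold change of 0.44 (adjusted p = 0.0194).

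The selenocysteine-containing peroxidases showed the same split among the Nrf2 KO libraries. Gpx1, the abundant cytosolic and mitochondrial form, was at 33.1, 61.4 and 57.1 CPM in control and 24.2, 125 and 120 CPM in Nrf2 KO replicates 1, 2 and 3. Replicate 1 was the lowest library in both groups, and replicates 2 and 3 labelled Nrf2 KO were above all others. The mean went from 50.5 ± 15.2 to 89.9 ± 57.0 CPM, with a log2 fold change of 0.83 (SE 0.61, adjusted p = 0.467). Without Nrf2 KO replicate 1 the value was 1.28 (adjusted p = 0.0133), and without both replicate 1 libraries 1.06 (6.82e-05).

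Gpx4 encodes the peroxidase that reduces lipid hydroperoxides in membranes and holds back ferroptosis. It was at 103, 122 and 132 CPM in control and 70.8, 182 and 189 CPM in the Nrf2 KO libraries. Here too replicate 1 lay below, and replicates 2 and 3 above, the whole control range. The fit gave a log2 fold change of 0.31 (SE 0.38, adjusted p = 0.684), and 0.64 (adjusted p = 0.0161) without Nrf2 KO replicate 1. Mouse annotation lists processed copies of Gpx4, between which the authors' counting could split reads, so its level is uncertain.

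Gpx3, the plasma form, was close to absent. Control replicates 1, 2 and 3 held 16, 12 and 15 of its counts, and the Nrf2 KO replicates 8, 27 and 17. The groups overlapped, and the log2 fold change of 0.22 (SE 0.40, adjusted p = 0.800) had no stable sign, being -0.067 without Nrf2 KO replicate 2. No difference was detectable at this depth.

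The other glutathione peroxidase genes of the table, Gpx2, Gpx5 and Gpx6, had too few counts for the test. Gpx2 had 4 counts in all control and 3 in all Nrf2 KO libraries, and Gpx6 had 7 and 2. Gpx5, a form known from the epididymis, had 3, 0 and 0 counts in control and 45, 11 and 11 in Nrf2 KO replicates 1, 2 and 3. That is a ratio of 22.5 with an exact 95% binomial interval of 7.37 to 112, which covers counting error only. In an edgeR fit with no filter on low counts Gpx5 did not pass (adjusted p = 0.0986), and most of its counts came from Nrf2 KO replicate 1.

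Of the peroxidases of the endoplasmic reticulum, Gpx8 rose and Gpx7 did not pass. Gpx8 was at 300, 211 and 256 CPM in control and at 518, 422 and 471 CPM in Nrf2 KO replicates 1, 2 and 3. The groups did not overlap, and Gpx8 was the gene of this family for which Nrf2 KO replicate 1 was the highest and not the lowest of its group. The mean went from 256 ± 44.8 to 470 ± 48.2 CPM (SD, n = 3 each), a fitted 1.84-fold rise (log2 fold change 0.88, SE 0.20, adjusted p = 0.0477). That p is close to its threshold of 0.05. The call was lost with upper-quartile scaling (0.0664), with library size alone (0.0605), and with no filter on low counts (0.0715). It was also lost on leaving out control replicate 1 (0.105), control replicate 2 (0.168), control replicate 3 (0.236), Nrf2 KO replicate 2 (0.114) and Nrf2 KO replicate 3 (0.144). The log2 fold change stayed between 0.76 and 1.01, and the adjusted p over all alternatives lay between 0.000253 and 0.236.

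Gpx7 was at 67.6, 62.9 and 71.1 CPM in control and 42.9, 90.9 and 107 CPM in the Nrf2 KO libraries. As for Gpx4, the Nrf2 KO libraries lay on both sides of a narrow control range. The fit gave a log2 fold change of 0.26 (SE 0.33, adjusted p = 0.704), and 0.55 (adjusted p = 0.0160) without Nrf2 KO replicate 1.

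Across the family, 2 of 9 tested genes were higher and 0 lower by edgeR, against 4.83% of all 14618 tested genes called higher and 3.45% called lower. At an unadjusted p under 0.05 edgeR gave 2 higher and 0 lower, against 13.4% and 11.6% of all tested genes. DESeq2 called 2 and 0, with 10.9% of all genes higher and 9.02% lower, and limma-voom 2 and 0, with 4.84% and 3.74%. The replicate block, a term for the replicate number, gave 2 and 0 with 10.4% and 7.92%. The median log2 fold change was 0.29 for the 9 genes and 0.044 for all tested genes. Groups that did not overlap, with Nrf2 KO above, were found for 2 of the 9 genes and for 17.1% of all tested genes. Scaling by RLE (4.95% of all genes higher, 3.45% lower) or a filter of CPM 1 in 3 libraries (5.22% and 3.80%) kept the count at 2, while upper-quartile scaling (4.31% and 4.08%), library size alone (4.42% and 3.66%) and no filter (2.85% and 1.98%) gave 1. The count depended on the libraries used. With any 1 library left out except Nrf2 KO replicate 1, edgeR called 0 of the 9 in either direction, and 2 were higher and 0 lower at an unadjusted p under 0.05 each time. At that unadjusted threshold the shares of all genes higher and lower were 9.58% and 7.70% without control replicate 1, 9.99% and 8.80% without control replicate 2, and 8.18% and 6.84% without control replicate 3. They were 10.9% and 8.20% on leaving out Nrf2 KO replicate 2, and 10.8% and 9.02% on leaving out Nrf2 KO replicate 3. At the adjusted threshold fewer of all genes passed than with all libraries: 1.40% higher and 0.691% lower without control replicate 1, 1.37% and 0.659% without control replicate 2, and 0.925% and 0.379% without control replicate 3. Leaving out Nrf2 KO replicate 2 gave 1.79% and 0.740%, and leaving out Nrf2 KO replicate 3 gave 1.82% and 0.739%.

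Without Nrf2 KO replicate 1, 6 of the 9 were higher and 0 lower: Cat, Gpx1, Gpx4, Gpx7, Gpx8 and Sod3. In that fit 15.6% of all tested genes were called higher and 14.5% lower. Without both replicate 1 libraries the same 6 passed, against 24.0% of all tested genes higher and 22.1% lower. Sod1, Sod2 and Gpx3 passed in neither. The median log2 fold change of the 9 genes in these fits was 0.55 and 0.57, and that of all tested genes -0.024 and -0.0017.

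**Figure D2:**
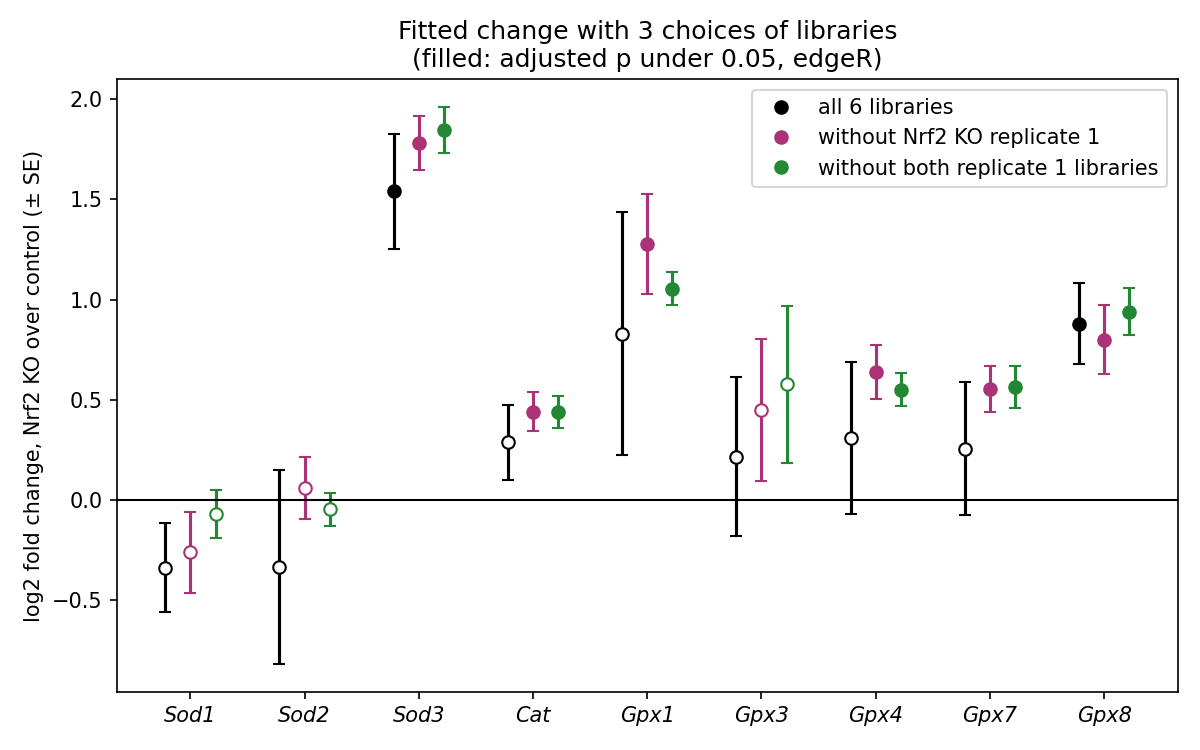
Fitted log2 fold change ± SE of each gene (vertical axis) with all 6 libraries, without Nrf2 KO replicate 1, and without both replicate 1 libraries; filled circles passed at an adjusted p under 0.05 by edgeR. With all libraries Sod3 and Gpx8 are filled, and in the other fits Cat, Gpx1, Gpx4 and Gpx7 are filled as well.

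The ratio between libraries of the same replicate number was taken as a description. The numbers are not shown to be pairs, so a ratio also carries differences among the control libraries. For Sod3 the Nrf2 KO library was 1.70-fold, 3.95-fold and 3.29-fold above the control library for numbers 1, 2 and 3, and for Gpx8 1.73-fold, 2.00-fold and 1.84-fold. These 2 genes had ratios above 1 for all 3 numbers. The ratios of Gpx1 were 0.729, 2.04 and 2.10, those of Gpx4 0.690, 1.49 and 1.43, those of Gpx7 0.635, 1.44 and 1.50, and those of Cat 0.953 for number 1 and up to 1.36 for the others. For these 4 genes number 1 pointed down, and numbers 2 and 3 pointed up by similar amounts. Sod2 had ratios of 0.344, 0.973 and 0.960, and Sod1 of 0.566, 1.01 and 0.902, so their ratios were lowest for number 1. For Sod1 control replicate 1 was also the highest control library.

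**Figure D3:**
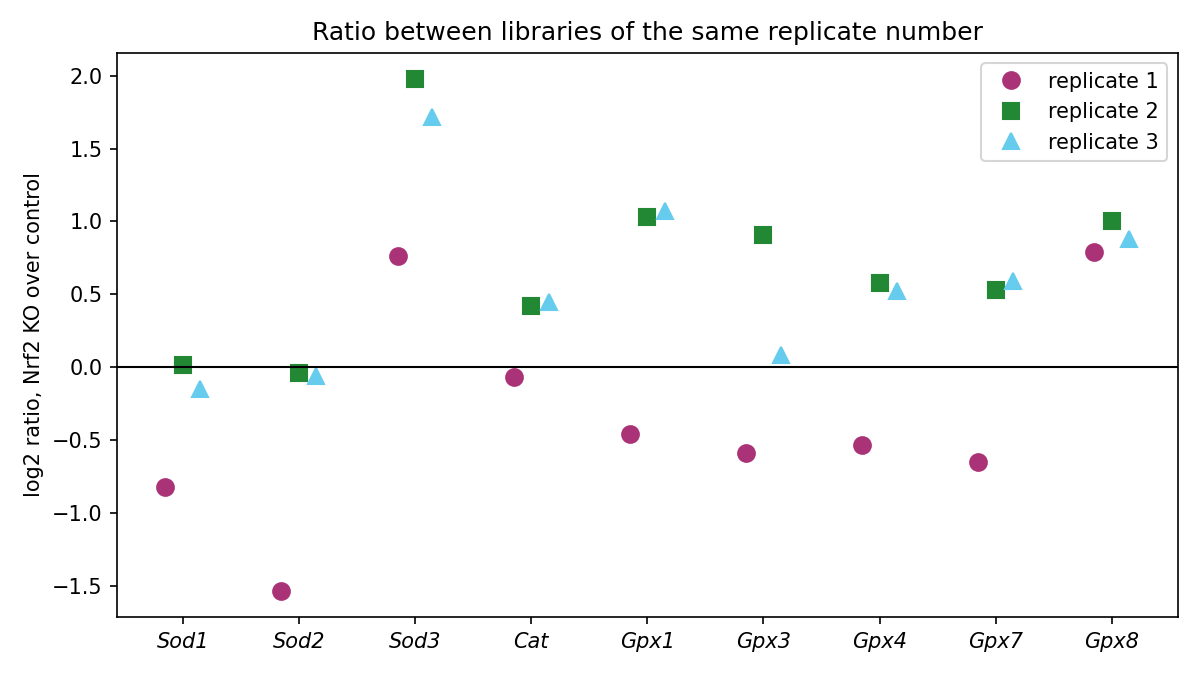
log2 ratio of the Nrf2 KO library over the control library with the same replicate number (vertical axis), for each gene. Symbols give the number, which is not shown to mark pairs. Sod3 and Gpx8 lie above 0 for all 3 numbers, and for the other 7 genes number 1 is the lowest point and lies below 0.

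Nrf2 KO replicate 1 was the lowest of all 6 libraries for 7 of the 9 genes and the lowest of the Nrf2 KO libraries for 8. The same held for 32.7% and 47.7% of all 14618 tested genes. The mean of Nrf2 KO replicates 2 and 3 was 5.08-fold above replicate 1 for Gpx1, 3.66-fold for Sod2, 2.63-fold for Gpx4 and 2.30-fold for Gpx7. A gap of at least 2-fold in that direction was found in 16.2% of all tested genes. For Gpx8 the same ratio was 0.861. The part of that library's lower depth in these values was not tested.

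Levels of different genes were compared per length. The authors' deposited table gives 1 FPKM (fragments scaled to length and depth) per group and gene, from which a length follows for each gene and group (for Sod1, 0.794 and 0.790 kb). CPM was therefore divided by the mean of the implied lengths. The gene symbols follow rat nomenclature, and mouse reads lost unevenly on other gene models would shift these levels between genes.

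In control cells Sod1 was the highest at 480 ± 109 CPM per kb, followed by Gpx8 at 197 ± 34.6, Sod2 at 137 ± 19.9 and Gpx4 at 111 ± 14.1 (SD, n = 3). Sod3 at 55.1 ± 6.62, Gpx7 at 53.2 ± 3.25, Gpx1 at 47.1 ± 14.2 and Cat at 36.2 ± 0.828 CPM per kb came next, and Gpx3 was at 0.191 ± 0.0400. The libraries of Sod2 and Gpx4 overlapped, as did those of Sod3 with Gpx7, Gpx7 with Gpx1, and Gpx1 with Cat, so these neighbours could not be ordered beyond their spread. In the libraries labelled Nrf2 KO, Sod1 at 380 ± 42.5 and Gpx8 at 363 ± 37.2 CPM per kb overlapped. Sod3 moved from the fifth to the third place by mean, at 160 ± 51.6, with a range that overlapped those of Gpx4 (138 ± 62.3) and Sod2 (109 ± 60.2). Gpx1 (83.8 ± 53.1), Gpx7 (63.6 ± 26.4) and Cat (44.2 ± 8.95) followed. In the authors' deposited table the group FPKM of Sod3 was 55.2 for control and 158 for Nrf2 KO, and that of Gpx8 198 and 363.

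**Figure D4:**
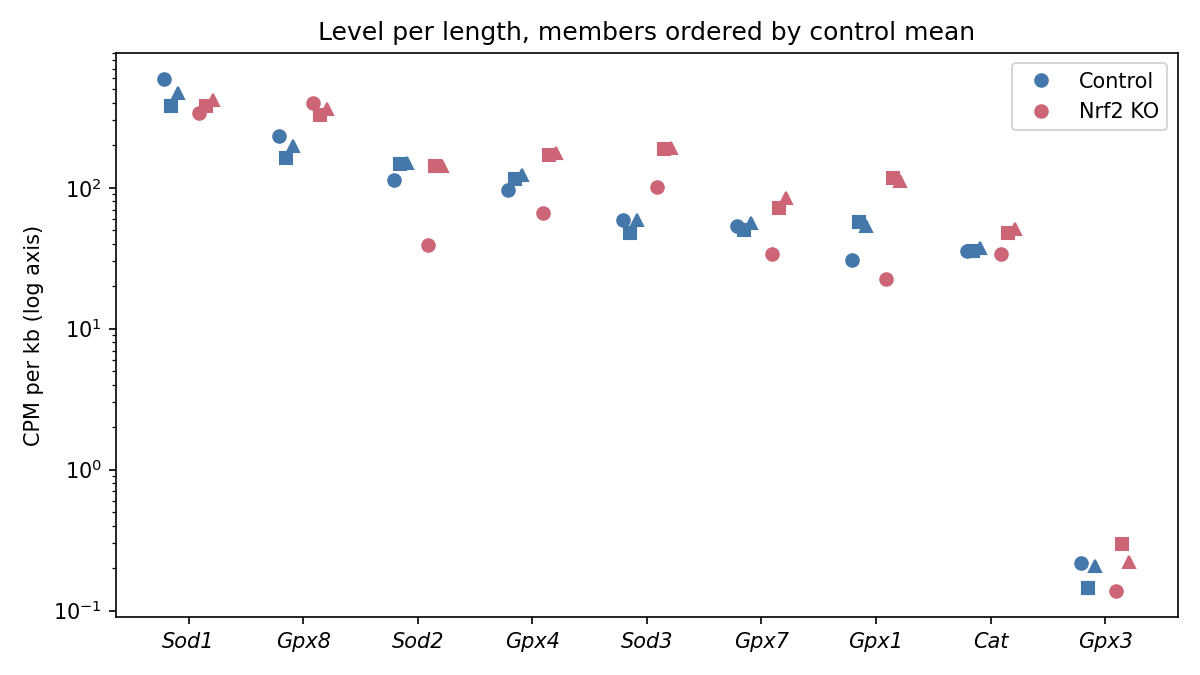
Level per length of each gene in every library, in CPM per kb on a log axis, ordered by the control mean; colours give the group and symbols the replicate number. Sod1 leads in control, Gpx8 reaches its range in the Nrf2 KO libraries, and Gpx3 lies far below the rest.

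Shares within the dismutases and within the glutathione peroxidases were taken from transcript per length. Sod3 made up 7.72%, 8.30% and 8.67% of superoxide dismutase transcript in control replicates 1, 2 and 3. In the Nrf2 KO libraries its share was 21.2%, 26.3% and 25.4%, with no overlap between the groups. Sod1 held 65.9% to 77.4% in control and 53.6% to 70.6% in Nrf2 KO. The summed level of the 3 dismutases was 672 ± 97.7 CPM per kb in control and 649 ± 151 in Nrf2 KO, which differed by less than the SD of either group. Gpx8 made up 42.3% to 56.2% of glutathione peroxidase transcript in control and 76.5%, 47.5% and 49.3% in Nrf2 KO replicates 1, 2 and 3, so its share stood above the control range in replicate 1 alone. The share of Gpx7 was 13.0% to 13.1% in control and 6.50%, 10.5% and 11.5% in Nrf2 KO, without overlap, while those of Gpx1 and Gpx4 overlapped. The summed level of Gpx7 and Gpx8 was 251 ± 36.6 and 427 ± 26.1 CPM per kb, without overlap. That of Gpx1, Gpx3 and Gpx4 was 159 ± 27.5 and 222 ± 115.

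The genes with the most similar profiles over the 6 libraries were found by the root mean square difference of centred log2 CPM. The search covered 9600 tested genes whose CPM averaged 5 or more and whose symbol did not begin with LOC, RGD or AABR. Gpx3 itself lay below that level. For Sod3 the closest were Cpne8 (0.15) and Cdkn2b (0.16), and for Gpx8 Gadd45b (0.069) and Dbf4 (0.090), all on the log2 scale. Gpx1 was closest to Akr1b1 (0.064) and Mrps6 (0.093), Gpx4 to Cript (0.028) and Cnih1 (0.053), and Gpx7 to Marc2 (0.057) and Calm2 (0.060). Cat was closest to Cenpa (0.036) and Ntmt1 (0.039), Sod1 to Ten1 (0.035) and Higd1a (0.046), Sod2 to Timm22 (0.049) and Gabarapl2 (0.051), and Gpx3 to RT1-M3-1 (0.17) and Pqlc3 (0.18). Within the family the closest pair was Gpx4 and Gpx7 (0.14), and Sod3 and Gpx8, the genes that rose, were 0.49 apart.

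Genes next to the family in the mouse annotation GRCm38.p6 were compared in the same fit. The table held 16 such genes, of which edgeR could test 12 and called 0 (4.83% of all genes were called higher and 3.45% lower). At an unadjusted p under 0.05, 3 were higher and 1 lower, against 13.4% and 11.6% of all genes. DESeq2 called 3 higher and 1 lower (10.9% and 9.02% of all genes), and limma-voom called 0 (4.84% and 3.74%). Cdc20b, which overlaps Gpx8, had 0 counts in all 6 libraries. The genes on either side of Sod3 gave log2 fold changes of 0.35 (Dhx15, adjusted p = 0.367) and 0.76 (Ccdc149, adjusted p = 0.385). Rhoa, next to Gpx1, was likewise lowest in Nrf2 KO replicate 1, at 443, 1261 and 1313 CPM for replicates 1, 2 and 3, and a log2 fold change of 0.41 (adjusted p = 0.630).

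Genes that supply these enzymes with their metals, selenium or glutathione gave 4 calls by edgeR with all libraries, all of them lower. Over all tested genes the shares higher and lower were 4.83% and 3.45% by edgeR, and 13.4% and 11.6% at an unadjusted p under 0.05. They were 10.9% and 9.02% by DESeq2, and 4.84% and 3.74% by limma-voom. With the replicate block they were 10.4% and 7.92%, and they were 15.6% and 14.5% without Nrf2 KO replicate 1. Of 9 tested copper and manganese genes, 0 were higher and 1 lower (3.45% of all genes were lower). This was Atox1, the copper chaperone of the secretory pathway through which SOD3 receives copper. Atox1 was at 23.9, 13.8 and 17.9 CPM in control and 0.766, 1.10 and 1.14 CPM in Nrf2 KO, with no overlap. It passed in all 15 alternatives. In this list 1 gene was higher with the replicate block (Slc39a14) and 2 without Nrf2 KO replicate 1. Ccs, the copper chaperone of SOD1, had a log2 fold change of -0.037 (SE 0.32, adjusted p = 0.962). Of 13 genes of selenocysteine synthesis and insertion, 0 were higher and 1 lower. That gene was Sephs1 (log2 fold change -0.76, SE 0.15), related to the selenophosphate synthetase Sephs2, which itself did not pass (-0.52, SE 0.36). Sephs1 lost its call without any 1 library except Nrf2 KO replicate 1 (adjusted p 0.0950 to 0.165). In that list DESeq2 also called Sepsecs (0.63, adjusted p = 0.00137) and Scly (0.85, adjusted p = 0.00840) higher, whose edgeR fit gave adjusted p of 0.0580 and 0.0760. With the replicate block 1 gene was higher (Sepsecs) and 1 lower, and without Nrf2 KO replicate 1 there were 2 higher and 3 lower. Of 12 tested other selenoproteins 0 passed in either direction by edgeR, DESeq2 or limma-voom, with 1 higher and 0 lower at an unadjusted p under 0.05. With the replicate block 1 was higher (Selk), and without Nrf2 KO replicate 1 there were 2. The most abundant were Sep15 (log2 fold change 0.10) and Txnrd1, the cytosolic thioredoxin reductase (0.47).

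Of 16 genes that make, carry or reduce glutathione, 0 were higher and 2 lower (4.83% of all genes were higher and 3.45% lower). Gss, which encodes glutathione synthetase, fell by 0.85 on the log2 scale (SE 0.13, adjusted p = 0.0156). It lost the call in each fit without a control library or Nrf2 KO replicate 2 or 3 (adjusted p 0.0797 to 0.119). Gsr, the reductase that recycles glutathione for the peroxidases, did not pass (-0.30, SE 0.45). With the replicate block 4 of the 16 were lower, against 7.92% of all genes. Of 10 other peroxidases, 0 passed by edgeR or limma-voom, DESeq2 called 1 higher and 4 lower, and edgeR gave 1 and 4 at an unadjusted p under 0.05. Their median log2 fold change was -0.65, and the peroxiredoxins Prdx1 (-0.87, SE 0.24, adjusted p = 0.0785) and Prdx2 (-1.09, SE 0.39, adjusted p = 0.151) were the most abundant. Prdx1 passed by DESeq2 (0.00268), with library size alone (0.0495) and without Nrf2 KO replicate 1 (0.0232), and Prdx2 by DESeq2 (0.0426) and without that library (0.00678). Without Nrf2 KO replicate 1, 2 of the 10 were higher and 4 lower, against 15.6% and 14.5% of all genes. The replicate block gave 0 higher and 1 lower, Prdx3.

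Of 16 tested enzymes and subunits that produce superoxide or hydrogen peroxide, 3 were higher and 3 lower, and 5 and 4 without Nrf2 KO replicate 1. Of all genes 4.83% were higher and 3.45% lower, and 15.6% and 14.5% without that library. The replicate block gave 3 higher and 4 lower (10.4% and 7.92% of all genes). Xdh, xanthine dehydrogenase, rose by 2.98 on the log2 scale (SE 0.26), with means of 1.33 ± 0.0863 CPM in control and 10.5 ± 2.58 CPM in Nrf2 KO. Of the lysyl oxidase genes, Loxl2 (1.77, SE 0.25) and Loxl3 (1.10, SE 0.15) rose, and Loxl1 (-1.76, SE 0.20) and Loxl4 (-2.11, SE 0.21) fell. Loxl2 lost its call on leaving out any control library (adjusted p 0.0702 to 0.0853). Loxl3 lost its call on leaving out Nrf2 KO replicate 2 or 3 or control replicate 1 or 3 (adjusted p 0.0538 to 0.0944), and Loxl1 without control replicate 3 (0.0539). Of 20 peroxisome genes 0 were higher and 2 lower: Hsd17b4, an enzyme of peroxisomal fatty acid oxidation (-1.39, SE 0.27), and Pex11g (-3.09, SE 0.38). Hsd17b4 lost its call without any 1 library except Nrf2 KO replicate 1 (adjusted p 0.0635 to 0.141), and Pex11g without control replicate 3 (0.0539). Of 12 genes of oxidative folding in the endoplasmic reticulum, the compartment of GPX7 and GPX8, 0 passed by edgeR or limma-voom, DESeq2 called 2 higher and 1 lower, and edgeR gave 3 and 1 at an unadjusted p under 0.05. With the replicate block 2 were higher and 0 lower, and without Nrf2 KO replicate 1 there were 4 higher and 1 lower. The most abundant were Hspa5 (0.37, SE 0.26) and Pdia3 (-0.16, SE 0.25).

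Around GPX4, 1 of 17 tested genes of lipid peroxidation and ferroptosis was higher and 0 lower, the iron exporter gene Slc40a1 (log2 fold change 2.09, SE 0.24), a call lost without control replicate 3 (adjusted p = 0.0636). With the replicate block 3 were higher and 0 lower, and without Nrf2 KO replicate 1 there were 4 and 1. Of 18 tested transcription regulators reported to act on these genes, 2 were higher and 0 lower, Nfe2l2 and Nfkb1 (0.92, SE 0.13), and 4 and 1 with the replicate block. Without any 1 library except Nrf2 KO replicate 1, 0 of the 18 passed, and Nfkb1 had an adjusted p of 0.0542 to 0.110.

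Fibroblast markers were followed beside the rise of Sod3 and Gpx8. Of 6 tested fibroblast markers 4 were higher and 0 lower (Col1a2, Thy1, Pdgfra and Col1a1), with a summed level of 5632 to 6743 CPM in control and 6692 to 8798 CPM in Nrf2 KO, ranges that overlapped. Of all genes 4.83% were higher and 3.45% lower. Of the other markers Col3a1 was at 4177 to 4836 CPM in control and 2659 to 2927 CPM in Nrf2 KO, Dcn had 0 counts in 4 of the 6 libraries, and Fap 0 in all control libraries. Col3a1 was called lower by DESeq2, and by edgeR without Nrf2 KO replicate 1 or without both replicate 1 libraries. Col1a1 lost its call without any 1 library except Nrf2 KO replicate 1 (adjusted p 0.0941 to 0.153). Of 5 tested smooth muscle and pericyte markers 1 was higher (Tagln) and 2 lower (Mcam and Des), with a sum of 191 to 220 and 249 to 330 CPM, and Rgs5 had 0 counts throughout. Tagln lost its call without control replicate 1, 2 or 3 (adjusted p 0.0548 to 0.0606), and Mcam and Des on leaving out Nrf2 KO replicate 3 or any control library (0.0880 to 0.159), and Mcam also without Nrf2 KO replicate 2 (0.0985). In bulk RNA, more cells of a type and more RNA per cell cannot be told apart. The part of these markers in the Sod3 and Gpx8 results was not tested.

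Of the markers for the labelled cochlear cell type, 3 of 8 hair cell markers (Atoh1, Slc26a5 and Calb2) and the prosensory marker Sox2 had 0 counts in all libraries. Some of the others were well expressed: Myo6 was at 31.5 to 61.2 CPM, Jag1 at 99.1 to 190.8 CPM and Fgfr3 at 36.2 to 71.5 CPM over the 6 libraries. Of the 8 hair cell markers, all but Myo6 and Myo7a had too few counts for the test. Myo7a was at 1.08 to 1.45 CPM in control. In this table of rat-style symbols the widely expressed genes Qsox1 and Gstk1 also had 0 counts throughout, so a listed 0 need not mean that a gene was silent. Of the hair cell markers 2 could be tested and 1 was higher (Myo7a), with a sum of 33.0 to 45.0 CPM in control and 62.4 to 76.5 in Nrf2 KO. Of 5 tested supporting and prosensory markers 3 were higher (Fst, Sox9 and Gata3) and 0 lower, with sums of 183 to 223 and 305 to 443 CPM. DESeq2 and the replicate block each gave 4 higher, with Jag1 added, and 0 lower. Fgfr3 went the other way, with a log2 fold change of -0.34 (SE 0.28, adjusted p = 0.528). It was called lower once Nrf2 KO replicate 1 was dropped, alone or together with control replicate 1. In each of those fits the same 4 markers were higher and 1 was lower. Sox9 lost its call without control replicate 2 or 3 (adjusted p 0.0549 and 0.0643), and Gata3 with upper-quartile scaling (0.0533), with library size alone (0.0528) and without any 1 library except Nrf2 KO replicate 1 (0.0843 to 0.185). Epithelial, leukocyte and erythroid markers were scarce, at no more than 7.69, 15.3 and 0.224 CPM in sum in any library. Krt8, Krt18, Krt19, Hba1 and Hbb had 0 counts. Of these lists Krt7 was higher and Laptm5 lower, and Krt7 lost its call without control replicate 1 (adjusted p = 0.0619) or 3 (0.0592).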

How the data were processed

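Per the submitters' processing notes, fastp, FastQC, HISAT2 and DESeq2 1.34.0 were used, in roles and an order the notes leave out, with build hg18. How reads were counted, on which strand and gene models, was not given in the sources used here. Of 30438 symbols, 1852 began with RGD or Olr, as rat gene names do. The authors deposited whole-number counts per gene and library, and a second table of FPKM with 1 value per group. No column belonged to another series.

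The group difference in counts was fitted with edgeR 4.0.16 (R 4.3.3; quasi-likelihood, robust, group as the only term) after filterByExpr by group (minimum count 10, total 15) and TMM scaling, which left 14618 genes. The p-values, of a test in both directions, were adjusted by Benjamini-Hochberg over all of them, with a threshold of 0.05. SE is the log2 fold change divided by the square root of F. Where no tool is named beside an adjusted p, it is edgeR's. The scripts were tested on simulated data. Alternatives were other scalings, DESeq2 1.42.0, limma-voom (limma 3.58.1), other filters, libraries left out, and a replicate block. Profiles used log2 CPM with a prior count of 2.

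The members, gene lists and alternatives were chosen with earlier results of these data known. All members were named, with up to 4 called genes per supporting list, or the 2 highest by CPM where none was called. The genes Loxl2, Sepsecs, Scly, Slc39a14, Selk, Prdx3, Myo6, Jag1, Fgfr3, Qsox1, Gstk1, Ccs, Sephs2, Gsr, Dhx15, Ccdc149, Rhoa and Cdc20b, Col3a1, Dcn, Fap and the markers at 0 were named outside this rule, after their values were seen. Some genes of the lists are counted but not reported here by name. Same-numbered libraries of the groups deviated together from their group means (r across genes 0.754, 0.696 and 0.310 for numbers 1, 2 and 3). No such r between different numbers was set beside these, and deviations within 3 libraries sum to 0. The values therefore do not show that the numbers are pairs. In log2 CPM, control replicate 1 had an r of 0.938 with Nrf2 KO replicate 1 and 0.939 with Nrf2 KO replicate 3. The labels give no pairing either. A fit with the number as a block was run as an alternative to the unpaired one. It is given for the members and where it changes a count in a supporting list. Between libraries of a group, chi-square per degree of freedom was at least 15.3, far above sampling noise.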

Additional observations from a re-analysis of the deposited data

How the results depend on the processing

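The number of the 9 genes called higher was 2 with RLE scaling, DESeq2, limma-voom, a filter of CPM 1 in 3 libraries and the replicate block, as with the settings reported. It was 1 with upper-quartile scaling, with library size alone and with no filter on low counts, where Gpx8 was lost. With 1 library left out it ranged from 0 to 6, the 6 being without Nrf2 KO replicate 1, and it was 6 without both replicate 1 libraries. In all 15 alternatives 0 of the 9 genes were called lower, and the median log2 fold change of the 9 lay between 0.16 and 0.57. Over all genes, 706 were higher and 505 lower as reported, 1598 and 1318 by DESeq2, 1520 and 1158 with the replicate block, and 3540 and 3253 without both replicate 1 libraries. With 1 library left out the counts ranged from 139 to 2323 higher and from 57 to 2162 lower. The replicate block changed no call of the 9 genes.

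The sign reversed for Sod2 without Nrf2 KO replicate 1, for Gpx3 without Nrf2 KO replicate 2 and for Gpx7 without Nrf2 KO replicate 3. With 1 library left out the log2 fold change ranged from -0.58 to 0.063 for Sod2, from -0.067 to 0.45 for Gpx3 and from -0.0042 to 0.55 for Gpx7. That of Pdia3 ranged from -0.29 to 0.052, positive without Nrf2 KO replicate 1, and was 0.021 without both replicate 1 libraries. Sep15 ranged from -0.15 to 0.50, negative on leaving out Nrf2 KO replicate 2 or 3 or control replicate 1, and was -0.11 by limma-voom and -0.071 with the replicate block. The cause was not tested. With the shorter letters TGANNNNGC, which include TGACNNNGC, 41.3% of promoter windows held a match, and Sod1 was still the only gene of the family with one. Depth limits Gpx2, Gpx3, Gpx5 and Gpx6, and intervals from counts cover counting error only.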
